A study of Rattus norvegicus with 14 samples.

Results

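The genes of voltage-gated and potassium ion channels were examined in plantaris, a fast calf muscle, of Wistar rats on 3 diets. Members were all genes of the array whose name begins with Kcn, Scn and a digit, Cacn or Clcn, apart from 2 genes that the choice leaves out. This gave 140 genes read by 196 of the 30367 probes on the array, and each gene was represented by its brightest probe. A gene was kept if 4 or more of the 14 arrays had that probe well above background, which left 119 genes; 94 were well above background on all 14 arrays and 12 on 0. In the repletion group (n = 4 arrays) vitamin D was first taken from the food and later given back. The depletion group (n = 6) had the depleted food, and the control group (n = 4) a diet with 1000 UI of vitamin D per kg. All rats were Wistar with no engineered allele named. The sources used here give no age, sex, length of feeding or vitamin D content of the other 2 diets. The titles call the muscles biological replicates, but no label says that each came from a separate animal, so the tests measure the spread between these muscles.

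Muscle fibres fire and relax through the concerted opening of these channels. Sodium channels carry the upstroke of the action potential along the surface membrane and into the transverse tubules. L-type calcium channel complexes in the tubules sense the voltage and release calcium from the internal store. Chloride channels and inward rectifier potassium channels hold the resting potential, and delayed rectifier potassium channels repolarise the fibre. Potassium channels gated by ATP or by calcium couple excitability to metabolism and to calcium. A whole muscle also holds nerve, vessel and connective tissue cells, which express channels of their own. In whole muscle, fewer cells of a type and less RNA per cell cannot be told apart.

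A level is the log2 of a probe's signal minus that of its array's 75th percentile, so each unit is a doubling. A level of 1 probe is not set against that of another, apart from the choice of brightest probes and a split of members by level for slide. Differences are log2 differences ± SE from limma's fit with the array slide as a block, over all 26392 kept probes. The 75th percentile itself was a signal of 1781 to 2387. Spots well above background made up 82.8% to 88.1% per array, and no spot was saturated. The 14 arrays lay on 5 slides, and every slide held at least 2 diets. For depletion replicate 1 the labels conflict: its title says depletion and its diet entry repletion. It was kept as depletion, and values without it are given for some of the genes only. All 12 fast fibre and sarcomere markers checked were kept, with creatine kinase (Ckm) averaging 8.22 ± 0.19 in repletion, 8.09 ± 0.20 in depletion and 8.16 ± 0.16 in control muscles (SD).

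The probes of the genes on which the account turns are shown first, as the array files give them, with their rn4 positions. Kcnj2 and Kcnj12 encode the 2 classical inward rectifiers of muscle and their probes lie over matching stretches of the 2 genes. Of 60 bases, 33 were the same and 27 differed, and the differing bases are in capitals. The Kcnj2 probe lies at chr10:100576110-100576169 and the Kcnj12 probe at chr10:47214419-47214478, both on the plus strand.
Kcnj2: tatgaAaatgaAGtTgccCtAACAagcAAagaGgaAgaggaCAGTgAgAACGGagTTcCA
Kcnj12: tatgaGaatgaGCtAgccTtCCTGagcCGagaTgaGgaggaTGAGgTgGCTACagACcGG

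The next probes belong to genes with small unadjusted p or with single arrays that stand apart, and to second probes that were compared with the brightest one. No base in them is marked. The Kcnj9 probe lies at chr13:88312815-88312874 on the minus strand, that of Kcnj13 at chr9:86207003-86207062 on the minus strand and that of Kcna1 at chr4:163012003-163012062 on the minus strand. The Kcnt2 probe lies at chr13:53792216-53792275 on the plus strand. The second probe of Clcn1 lies at chr4:70058568-70058627 on the plus strand and that of Cacng1 at chr10:97105946-97106005 on the minus strand. The dimmer probes of Kcnma1 lie at chr15:949056-949115 and chr15:323124-323183, both on the plus strand. No exon or UTR annotation of rn4 was used here, so the part of the transcript that each probe reads is not stated.
Kcnj9: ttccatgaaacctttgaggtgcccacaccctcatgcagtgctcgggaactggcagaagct
Kcnj13: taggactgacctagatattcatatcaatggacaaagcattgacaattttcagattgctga
Kcna1: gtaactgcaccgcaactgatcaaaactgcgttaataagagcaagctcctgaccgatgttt
Kcnt2: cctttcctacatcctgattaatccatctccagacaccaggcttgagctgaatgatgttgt
Clcn1, second probe: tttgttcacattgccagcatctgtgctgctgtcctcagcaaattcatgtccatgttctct
Cacng1, second probe: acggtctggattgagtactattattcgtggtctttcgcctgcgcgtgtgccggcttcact
Kcnma1, second probe: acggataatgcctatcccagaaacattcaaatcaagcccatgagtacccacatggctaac
Kcnma1, other dim probe: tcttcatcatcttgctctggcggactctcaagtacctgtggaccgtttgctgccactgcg

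Detection differed by role. All 9 chloride channel and exchanger genes were kept, as were 35 of 40 voltage-gated potassium pores, 13 of 14 two-pore potassium channels and 15 of 17 potassium channel accessory subunits. Among calcium channels, 8 of 9 pores and 14 of 16 accessory subunits were kept. Sodium channels had 6 of 9 pores and 3 of 4 beta subunits, and calcium- or sodium-activated potassium channels had 6 of 7. The inward rectifiers had 10 of 15, and the 5 left out were Kcnj1, Kcnj6, Kcnj10, Kcnj15 and Kcnj16. Also left out were the neuronal sodium channels Scn8a, Scn9a and Scn10a with the beta subunit Scn2b, the calcium channel genes Cacna1f, Cacnb2 and Cacng4, and Kcnn2, Kcnk15, Kcna4, Kcnh5, Kcnh7, Kcnh8, Kcnv1, Kcnip3 and Kcnip4. At the edge of the filter, Scn2a1 and Kcng4 were among the genes kept with 4 arrays well above background. Cacna1f, Kcnj1, Kcnip3, Kcnip4 and Scn10a were so on 3 arrays and were not.

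The design asks how muscle transcripts differ between a diet depleted of vitamin D, the same followed by repletion, and a control diet. No channel gene passed limma's moderated test at an adjusted p of 0.05 in any of the 3 comparisons or in the F test over the diets, and neither did any of the 26392 probes (0%). For depletion minus control, the lowest adjusted p of a member was 0.832. It was 0.933 for repletion minus depletion and 1.00 for repletion minus control. Before adjustment, 10 of 119 members (8.4%) had p under 0.05 for depletion minus control, against 4.82% of all probes. Of these, 3 were higher in depletion, against 2.14% of all probes, and 7 lower, against 2.69%. Without depletion replicate 1, 3 members were higher and 3 lower, beside 3.04% of all probes in either direction. With all arrays, the members numbered 3 for repletion minus depletion (2.52%), against 3.47% of all probes. Only 1 of these, Kcnh2, was higher in repletion, against 2.5% of all probes, and 2 were lower, against 0.962%. For repletion minus control they numbered 5 (4.20%), against 1.99% of all probes, with 2 higher in repletion, against 1.3%, and 3 lower, against 0.693%. The F test over the 3 diets gave 4 members with unadjusted p under 0.05 (3.36%), against 3.1% of all probes.

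The middle of the family lay close to that of the array. The median difference of the 119 members was -0.03 for depletion minus control, against -0.02 over all probes, and 53 members (44.5%) were above 0, against 45.3% of probes. For repletion minus depletion the median was 0.10, against 0.04 over all probes, and 80 members (67.2%) were above 0, against 58.9%. Within slides, the members' median for that comparison was 0.25 on slide 1, -0.04 on slide 2, -0.03 on slide 3 and 0.11 on slide 5, so it was above 0 on 2 of 4 slides. Without depletion replicate 1, which lies on slide 1, 76 members were above 0, against 57.1% of probes. For repletion minus control the median was 0.04, against 0.01 over all probes, and 73 members (61.3%) were above 0, against 53.6%. The 3 comparisons share muscles and are not independent of one another.

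**Figure D1:**
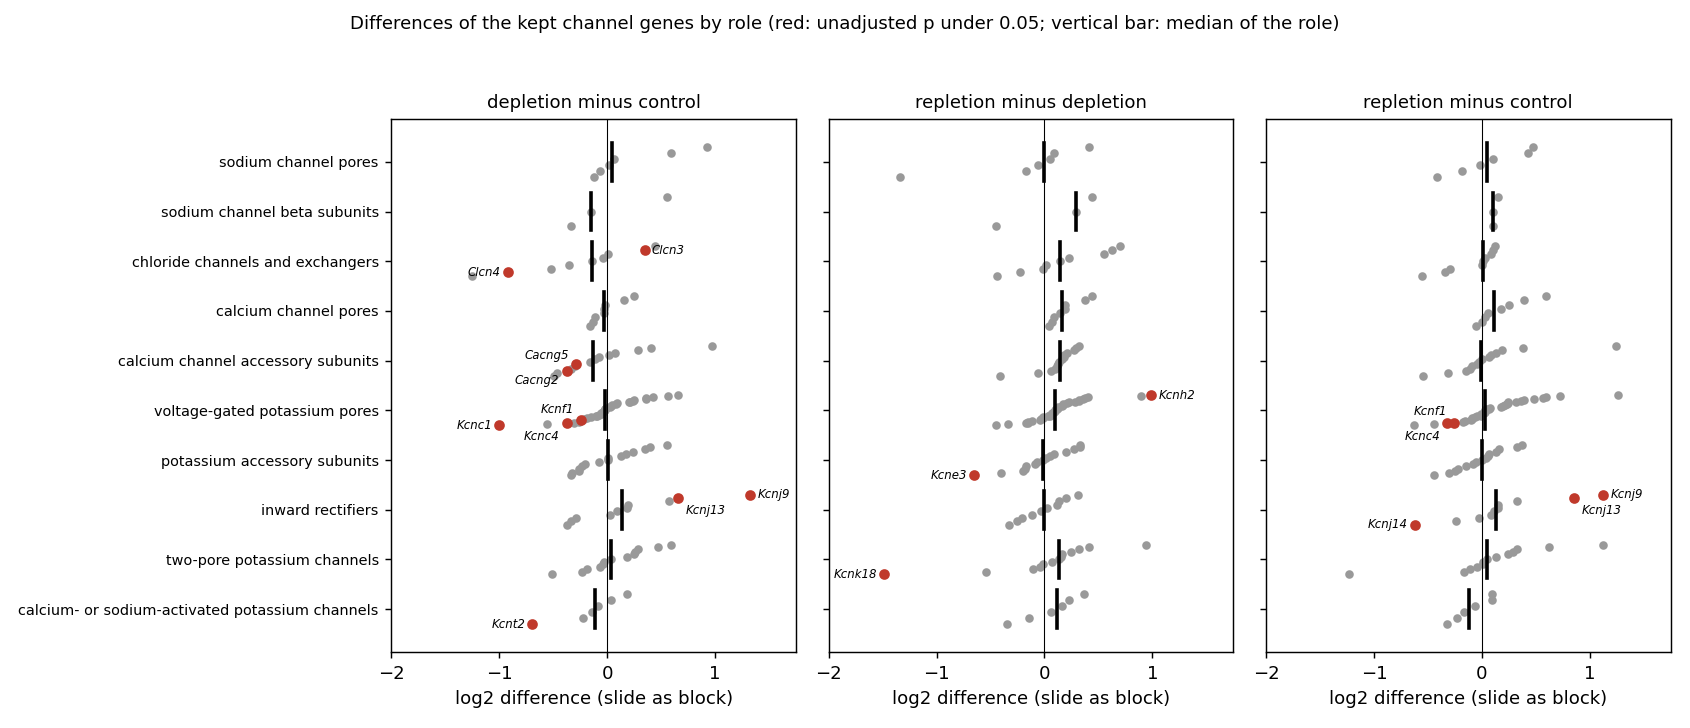
Each point is the log2 difference of 1 kept channel gene (x axis) for depletion minus control, repletion minus depletion and repletion minus control, grouped by role (y axis); red points have unadjusted p under 0.05 and black bars are medians. None of the points passed an adjusted p of 0.05. All 8 calcium channel pores lie above 0 for repletion minus depletion, as do 58.9% of all probes of the array that were kept.

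After the fitted slide effects were taken out, the groups of 8 members did not overlap for depletion minus control. Kcnj9 was the 1 member with every depletion muscle above every control muscle, against 2.5% of all probes. The 7 with every depletion muscle below were Kcnc1, Kcnc4, Cacng5, Cacng2, Kcnf1, Cacna2d1 and Kcnk12, against 3.02% of all probes. For repletion minus depletion, Kcnk12 lay above (1.97% of all probes) and Kcne3 below (0.731%). For repletion minus control, 4 members lay above (3.39% of all probes) and 3 below (1.62%). Those above included Kcnj13, Kcnj9 and Cacng8, and the 3 below were Kcnj14, Kcnf1 and Kcnc4.

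A list of 30 channel genes with a known place in skeletal muscle or its nerve was followed whatever its values, and all 30 were kept. For depletion minus control 15 were above 0 and 15 below, with a median of -0.01. For repletion minus depletion 22 of 30 were above 0 with a median of 0.14, and for repletion minus control 20 of 30 with a median of 0.09. None had an adjusted p below 0.832. Depletion replicate 1 had the lowest level of the 6 depletion muscles for 10 of these 30 genes and the highest for 6.

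Sodium channel pores and beta subunits gave no unadjusted p under 0.05 in any comparison. Scn4a encodes the sodium channel that fires the adult muscle action potential. Its levels were -1.46, -1.16, -1.85 and -1.50 in repletion muscles. In depletion muscles they ran between -1.84 and -1.06 with a median of -1.58, and in control muscles they were -1.56, -1.54, -1.68 and -0.92. The 3 groups overlapped over most of their range. The Scn4a difference was 0.02 ± 0.18 for depletion minus control and 0.09 ± 0.17 for repletion minus depletion.

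The beta subunits tune the gating of the pore. Scn4b had 4.58, 4.25, 4.10 and 4.51 in repletion muscles, 3.04 to 4.37 with a median of 4.10 in depletion muscles, and 3.84, 4.51, 4.01 and 4.49 in control muscles. The lowest Scn4b level was that of depletion replicate 1, and the other 5 depletion muscles ran from 3.81 to 4.37. Scn4b differed by -0.34 ± 0.29 for depletion minus control and by 0.44 ± 0.27 for repletion minus depletion. Without depletion replicate 1 these became 0.04 and 0.20.

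**Figure D2:**
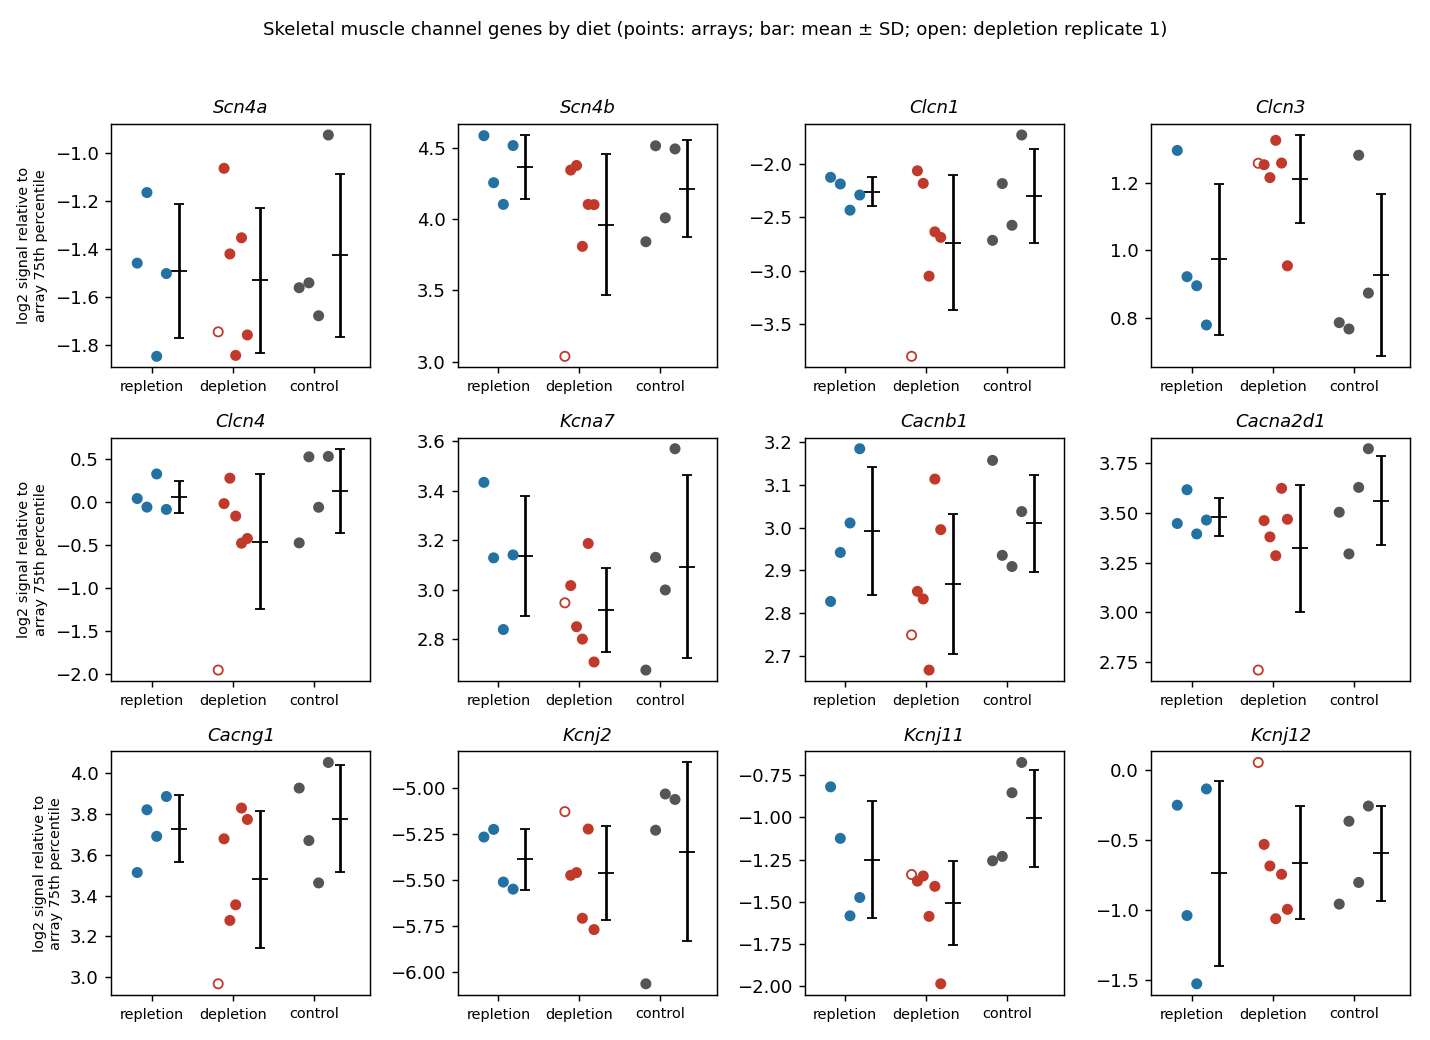
Log2 signal relative to the array's 75th percentile (y axes, each on its own scale) of 12 muscle channel genes in repletion, depletion and control muscles; points are arrays, bars are mean ± SD, and the open point is depletion replicate 1. The groups overlap in every panel except depletion against control for Kcnj11, and the open point is the lowest of all arrays for Scn4b, Clcn1, Clcn4, Cacna2d1 and Cacng1.

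Among the 9 chloride channel and exchanger genes, 2 had unadjusted p under 0.05 for depletion minus control, 1 in each direction. Clcn1 encodes the chloride channel that sets most of the resting conductance of the fibre, and its loss causes myotonia. Its levels were -2.13, -2.19, -2.43 and -2.29 in repletion muscles, -3.80 to -2.07 with a median of -2.66 in depletion muscles, and -2.71, -2.18, -2.57 and -1.73 in control muscles. Depletion replicate 1 was the lowest array and the remaining depletion muscles overlapped with both other groups. The Clcn1 difference was -0.52 ± 0.34 for depletion minus control and 0.55 ± 0.31 for repletion minus depletion, and without depletion replicate 1 it was -0.13 and 0.30. The second Clcn1 probe gave -0.34 and 0.39.

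Clcn3 and Clcn4 encode chloride and proton exchangers of endosomes. Clcn3 had 1.30, 0.92, 0.90 and 0.78 in repletion muscles, 0.95 to 1.33 with a median of 1.26 in depletion muscles, and 0.79, 0.77, 1.28 and 0.87 in control muscles. All 6 depletion muscles lay above 3 of the 4 control muscles, and control replicate 3 lay among them. Clcn3 differed by 0.35 ± 0.14 for depletion minus control (adjusted p = 0.832 by limma) and by -0.23 ± 0.13 for repletion minus depletion, and its second probe gave 0.46 and -0.23. Clcn4, named here after its values were seen, had -1.96 in depletion replicate 1 and differed by -0.92 ± 0.37 for depletion minus control and by 0.62 for repletion minus depletion. Without that replicate, a value added after seeing the data, Clcn4 differed by -0.43 ± 0.29 and by 0.31. Clcn2, a widely expressed chloride channel, was well above background on 2 of 4 repletion, 3 of 6 depletion and 3 of 4 control arrays, and differed by -0.14 ± 0.43 for depletion minus control.

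All 8 kept calcium channel pores were above 0 for repletion minus depletion, against 67.2% of members and 58.9% of all probes. Their median was 0.17, and none had an unadjusted p under 0.05. Of the 8 pores, 6 passed the F test for slide. For depletion minus control 2 of 8 were above 0, with a median of -0.03. Cacna1h encodes a T-type channel that opens near the resting potential. It had -3.40, -3.33, -3.42 and -3.16 in repletion muscles, -3.71 to -3.13 with a median of -3.52 in depletion muscles, and -3.88, -2.58, -3.94 and -4.13 in control muscles. Control replicate 2 stood above all other arrays, and the other 3 control muscles were the lowest. The Cacna1h difference was 0.25 ± 0.30 for depletion minus control, and 0.56 without control replicate 2. Cacna1c, the L-type pore of heart and smooth muscle, was lowest on the 3 arrays of slide 2, at -5.96 in repletion, -6.13 in depletion and -6.12 in control. Its difference was -0.03 ± 0.14 for depletion minus control and 0.09 ± 0.13 for repletion minus depletion.

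Among the accessory subunits of calcium channels, 5 of 14 were above 0 for depletion minus control (median -0.14) and 12 of 14 for repletion minus depletion (median 0.15). The skeletal muscle L-type complex contains the products of Cacnb1, Cacna2d1 and Cacng1. Cacnb1 had 2.83, 2.94, 3.01 and 3.18 in repletion muscles, 2.67 to 3.11 with a median of 2.84 in depletion muscles, and 3.16, 2.94, 2.91 and 3.04 in control muscles. Cacna2d1 had 3.45, 3.61, 3.39 and 3.46 in repletion muscles, 2.71 to 3.62 with a median of 3.42 in depletion muscles, and 3.50, 3.29, 3.63 and 3.82 in control muscles. Cacng1 had 3.51, 3.82, 3.69 and 3.89 in repletion muscles, 2.97 to 3.83 with a median of 3.52 in depletion muscles, and 3.93, 3.67, 3.46 and 4.05 in control muscles. For each of these 3 genes the groups overlapped, and depletion replicate 1 was the lowest array for Cacna2d1 and Cacng1.

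The differences of these subunits for depletion minus control were -0.16 ± 0.11 for Cacnb1, -0.30 ± 0.14 for Cacna2d1 and -0.33 ± 0.17 for Cacng1. For repletion minus depletion they were 0.14 ± 0.10, 0.21 ± 0.13 and 0.29 ± 0.15 in the same order. Without depletion replicate 1, Cacna2d1 gave -0.12 and Cacng1 -0.16 for depletion minus control. The second Cacng1 probe gave -0.36 and 0.29, while the second Cacnb1 probe gave -0.01 and -0.22. Cacng6, a further gamma subunit of muscle, differed by -0.11 ± 0.20 for depletion minus control.

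Other gamma subunits are known mainly from brain, where they travel with glutamate receptors. Cacng2 and Cacng5 had unadjusted p under 0.05 for depletion minus control, at -0.38 ± 0.14 and -0.29 ± 0.10. Within slides 1, 2 and 4, Cacng2 gave -0.41, -0.36 and -0.51 and Cacng5 -0.21, -0.29 and -0.35, so both were below 0 on each slide that held the 2 diets. Both also passed the F test for slide, and without the slide block they differed by -0.16 and -0.07. Cacng8 had -4.84, -2.76, -4.65 and -4.71 in repletion muscles, -5.32 to -2.71 with a median of -4.61 in depletion muscles, and -5.16, -5.18, -6.38 and -3.56 in control muscles. Its highest arrays were depletion replicate 2 and repletion replicate 2, and control replicate 3 was the lowest. All 3 lie on slide 2. Cacng8 differed by 1.24 ± 0.66 for repletion minus control and by 0.97 ± 0.60 for depletion minus control, and without control replicate 3 by 0.03 and -0.12. Cacna2d2, an alternative to Cacna2d1, differed by -0.55 ± 0.25 for repletion minus control.

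The 35 voltage-gated potassium pores had 14 above 0 for depletion minus control (median -0.02) and 25 above 0 for repletion minus depletion (median 0.10). With unadjusted p under 0.05, 3 were lower in depletion than in control and 1 was higher in repletion than in depletion. Kcnc1 and Kcnc4 encode fast delayed rectifiers, and the Kcnc4 product joins that of Kcne3 in skeletal muscle. Kcnc1 had -5.40, -4.30, -3.68 and -5.29 in repletion muscles, -5.24 to -4.77 with a median of -5.05 in depletion muscles, and -3.92, -3.86, -4.08 and -4.81 in control muscles. Of the control muscles, 3 lay above all depletion muscles, and control replicate 4 lay above 5 of the 6. Kcnc1 differed by -1.0 ± 0.33 for depletion minus control (adjusted p = 0.832 by limma) and by 0.37 ± 0.30 for repletion minus depletion. On slides 1, 2 and 4 the Kcnc1 difference of depletion minus control was -1.26, -0.92 and -0.19, and with the authors' normalized values it was -0.54.

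Kcnc4 had -1.82, -1.19, -1.48 and -2.05 in repletion muscles, -1.95 to -1.19 with a median of -1.82 in depletion muscles, and -1.24, -1.43, -0.98 and -1.49 in control muscles. Apart from depletion replicate 2, every depletion muscle lay below every control muscle. Kcnc4 differed by -0.37 ± 0.13 for depletion minus control and by -0.32 ± 0.14 for repletion minus control, with 0.05 ± 0.12 between repletion and depletion. It was below control on each of slides 1, 2 and 4, by -0.38, -0.21 and -0.38. Each of the 34 alternative settings left the depletion minus control difference below 0, between -0.44 and -0.31, and none gave it an adjusted p under 0.05.

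Kcnh2 encodes a channel best known for repolarising the heart. Its levels were -4.47, -4.09, -3.64 and -3.99 in repletion muscles, -6.17 to -3.74 with a median of -4.76 in depletion muscles, and -5.24, -4.35, -6.29 and -4.68 in control muscles. Of the repletion muscles, 3 lay above all control muscles and above 5 of 6 depletion muscles. Kcnh2 differed by 0.99 ± 0.39 for repletion minus depletion (adjusted p = 0.933 by limma), 0.73 without depletion replicate 1 and 0.47 with normexp background correction. Its second probe gave 0.30. Kcnf1 and Kcng3 encode subunits that are silent on their own and modify other channels. Kcnf1 differed by -0.24 ± 0.10 for depletion minus control and by -0.26 ± 0.11 for repletion minus control, while its slide means spanned 3.32. Kcng3 differed by 0.40 ± 0.22 for repletion minus depletion.

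Kcna7, a muscle pore, had 3.43, 3.13, 2.84 and 3.14 in repletion muscles, 2.71 to 3.19 with a median of 2.90 in depletion muscles, and 2.67, 3.13, 3.00 and 3.57 in control muscles, and differed by 0.28 ± 0.14 for repletion minus depletion. Kcna5 differed by -0.25 ± 0.19 for depletion minus control. Kcnq5, of the family that carries slow subthreshold currents, differed by 0.20 ± 0.18 in that comparison.

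Potassium channel accessory subunits had 8 of 15 above 0 for depletion minus control and 7 of 15 for repletion minus depletion. Kcne3, the partner of Kcnc4 named above, had -6.11, -5.84, -6.92 and -5.93 in repletion muscles, -5.80 to -5.24 with a median of -5.72 in depletion muscles, and -4.77, -5.87, -6.31 and -6.16 in control muscles. Every repletion muscle lay below every depletion muscle, and the control muscles spanned both groups. This was the only member whose measured groups did not overlap for repletion against depletion, against 0.0758% of all probes; 0 members were higher without overlap, against 0.231%. Kcne3 differed by -0.65 ± 0.26 for repletion minus depletion (adjusted p = 0.933 by limma) and by 0.35 ± 0.28 for depletion minus control. With normexp background correction repletion minus depletion gave -0.38. The highest depletion level of Kcne3, -5.24, was that of depletion replicate 1, whose diet entry says repletion. Counted as repletion, that array would make the 2 groups overlap. Without it, or with it counted as repletion, 0 members were lower in repletion than in depletion at unadjusted p under 0.05 by limma. Kcne3 was thus no longer among such members. Kcnab2, a cytoplasmic beta subunit, differed by 0.33 ± 0.16 for repletion minus depletion.

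Inward rectifiers had 7 of 10 above 0 for depletion minus control (median 0.14) and 5 of 10 for repletion minus depletion (median -0.01). Kcnj2 had -5.27, -5.22, -5.51 and -5.55 in repletion muscles, -5.77 to -5.13 with a median of -5.47 in depletion muscles, and -6.06, -5.23, -5.03 and -5.06 in control muscles. Kcnj12 had -0.25, -1.04, -1.53 and -0.13 in repletion muscles, -1.06 to 0.06 with a median of -0.71 in depletion muscles, and -0.96, -0.36, -0.80 and -0.26 in control muscles. For both genes the 3 groups overlapped. The differences of depletion minus control were 0.03 ± 0.21 for Kcnj2 and 0.20 ± 0.29 for Kcnj12.

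Kcnj11 and Kcnj8 encode the pores of ATP-sensitive potassium channels, which open when the fibre runs short of energy. Kcnj11 had -0.82, -1.12, -1.58 and -1.48 in repletion muscles, -1.99 to -1.34 with a median of -1.39 in depletion muscles, and -1.26, -1.23, -0.85 and -0.67 in control muscles. All 6 depletion muscles lay below all 4 control muscles, the only member of which this held for the measured levels, against 0.512% of all probes; 0 members lay above without overlap, against 0.345%. Repletion muscles spanned both groups. Kcnj11 differed by -0.33 ± 0.17 for depletion minus control (adjusted p = 0.832 by limma) and by 0.31 ± 0.16 for repletion minus depletion. Within slides 1, 2 and 4 depletion minus control gave -0.09, -0.52 and -0.74, and once slide was taken out the groups overlapped. Kcnj8 differed by 0.57 ± 0.29 for depletion minus control and by -0.25 ± 0.26 for repletion minus depletion.

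Kcnj9, Kcnj13 and Kcnj14 had unadjusted p under 0.05 for repletion minus control. Kcnj9 encodes a subunit of potassium channels gated by G proteins. It had -2.64, -1.65, -2.40 and -2.73 in repletion muscles, -2.75 to -1.17 with a median of -2.14 in depletion muscles, and -2.82, -3.17, -4.16 and -2.62 in control muscles. Depletion replicate 2 was the highest array and control replicate 3 the lowest, both on slide 2, and the groups overlapped. Kcnj9 differed by 1.33 ± 0.39 for depletion minus control, with an unadjusted p of 0.0076 and an adjusted p of 0.832 by limma. That unadjusted p was the smallest among members at their brightest probes. Kcnj9 differed by 1.12 ± 0.43 for repletion minus control and by -0.20 ± 0.36 for repletion minus depletion. Within slides 1, 2 and 4 depletion minus control gave 0.77, 2.99 and 0.63, and without control replicate 3 the fit gave 0.68. The dimmer Kcnj9 probe gave -0.12, so the probes of this gene disagreed.

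Kcnj13 encodes an inward rectifier known mainly from transporting epithelia. It had -3.29, -2.72, -3.18 and -3.31 in repletion muscles, -3.74 to -2.51 with a median of -3.48 in depletion muscles, and -4.66, -3.67, -4.12 and -4.21 in control muscles. Every repletion muscle lay above every control muscle, the only member of which this held, against 0.701% of all probes, and 0 members lay below, against 0.462%. Of the depletion muscles, 5 of 6 lay above all control muscles. Kcnj13 differed by 0.86 ± 0.31 for repletion minus control (adjusted p = 1.00 by limma) and by 0.66 ± 0.28 for depletion minus control. On slides 1, 2 and 4 depletion minus control gave 0.54, 0.53 and 0.47, and on slides 1 and 2 repletion minus control gave 0.88 and 1.40. All 34 alternatives left both differences above 0. Kcnj14, a relative of Kcnj2, differed by -0.62 ± 0.22 for repletion minus control and by -0.29 ± 0.20 for depletion minus control.

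Two-pore potassium channels carry the leak current of resting cells, and 7 of 13 were above 0 for depletion minus control and 8 of 13 for repletion minus depletion. Kcnk18 had -9.69, -5.12, -6.08 and -9.68 in repletion muscles, -7.36 to -5.03 with a median of -6.06 in depletion muscles, and -6.49, -6.33, -5.07 and -7.38 in control muscles. It was well above background on 2 of 4 repletion arrays, 5 of 6 depletion arrays and 3 of 4 control arrays, and the 2 lowest levels were those of repletion replicates 1 and 4. The Kcnk18 difference was -1.48 ± 0.60 for repletion minus depletion, and -0.26 with normexp background correction. Kcnk12 differed by 0.25 ± 0.12 and Kcnk16 by 0.32 ± 0.16 for repletion minus depletion. Kcnk9 differed by 0.59 ± 0.27 for depletion minus control, and by -0.07 with normexp. Kcnk5 and Kcnk13 differed by 0.29 ± 0.38 and 0.26 ± 0.24 in that comparison.

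Calcium- or sodium-activated potassium channels had 2 of 6 above 0 for depletion minus control and 4 of 6 for repletion minus depletion. Kcnma1 encodes the large-conductance channel opened by calcium and voltage. Its brightest probe had -0.59, -0.49, -1.32 and -2.14 in repletion muscles, -1.18 to -0.52 with a median of -0.69 in depletion muscles, and -1.03, -1.14, -0.46 and -0.49 in control muscles. Repletion replicate 4 was the lowest array, and depletion muscles lay inside the control range but for depletion replicate 1. That probe gave 0.18 ± 0.29 for depletion minus control and -0.35 ± 0.26 for repletion minus depletion. The dimmer Kcnma1 probes shown above gave 0.68 and 0.49 for depletion minus control and -0.51 and -0.27 for repletion minus depletion. In the same order, their unadjusted p by limma was 0.0018 and 0.021 for depletion minus control and 0.0064 and 0.13 for repletion minus depletion. Neither probe passed after adjustment. Both are named here after their values were seen.

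Kcnn3 encodes a small-conductance channel that appears in denervated fibres. It had 0.45, 1.16, 1.08 and 0.90 in repletion muscles, 0.50 to 1.00 with a median of 0.82 in depletion muscles, and 0.74, 0.47, 0.85 and 0.48 in control muscles. The groups overlapped, and Kcnn3 differed by 0.04 ± 0.14 for depletion minus control. Kcnt2, a sodium-activated channel, had -5.71, -4.13, -4.78 and -4.71 in repletion muscles, -6.71 to -4.05 with a median of -4.95 in depletion muscles, and -5.86, -5.80, -4.09 and -4.27 in control muscles. The groups overlapped. Kcnt2 differed by -0.69 ± 0.25 for depletion minus control, and within slides 1, 2 and 4 by -0.88, 0.04 and -1.63. Without the slide block the Kcnt2 difference was -0.20.

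Slide was called for many channel genes and diet for none. By limma's F test for slide with diet in the model, 48 of 119 members (40.3%) passed an adjusted p of 0.05, against 28.1% of all probes. Of the 48, 36 had their highest slide mean on slide 2 and 12 on slide 4. By role, 18 of 35 voltage-gated potassium pores, 6 of 8 calcium channel pores and 7 of 15 potassium accessory subunits passed, against 1 of 9 chloride channel genes, 1 of 6 sodium channel pores and 0 of 3 sodium channel beta subunits. By level, 32 of the 59 members below the members' median level passed, against 16 of the 60 at or above it. Whether the roles differ apart from level was not tested. Of the 10 members with unadjusted p under 0.05 for depletion minus control, 5 passed the slide test, namely Cacng2, Cacng5, Kcnc4, Kcnf1 and Kcnt2.

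The 5 members with the smallest slide p were Kcnf1, Scn11a, Kcnc2, Kcnk9 and Kcnk12. Kcnf1 had slide means of -6.23, -3.73, -4.41, -5.38 and -7.05 on slides 1 to 5 after removal of the diet means (adjusted p = 2.7e-06 by limma). Scn11a, a sodium channel of sensory neurons, had -6.62, -4.28, -5.09, -6.46 and -7.0. Kcnc2, a fast delayed rectifier of neurons, ran the other way with -4.62, -6.71, -4.15, -3.77 and -4.24. The slide means spanned 3.32 for Kcnf1, 2.72 for Scn11a, 2.94 for Kcnc2, 4.27 for Kcnk9 and 2.06 for Kcnk12. The Kcnk9 means were -7.11, -5.35, -6.34, -9.62 and -9.50 on slides 1 to 5. Those on slides 4 and 5 lay below the lowest level of any spot well above background, -7.85 on control replicate 1. The Kcnk9 span thus rests on values near background. No diet difference of these 5 genes was larger than 0.26 in size, except for Kcnk9, with 0.59 for depletion minus control and -0.54 for repletion minus depletion. As given above, the Kcnk9 difference of depletion minus control changed sign with normexp background correction. The genes were picked for a small slide p, so wide spans were fixed by the choice. A span over 5 slide means also differs in kind from a difference between diets. What makes the slides differ was not tested.

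**Figure D3:**
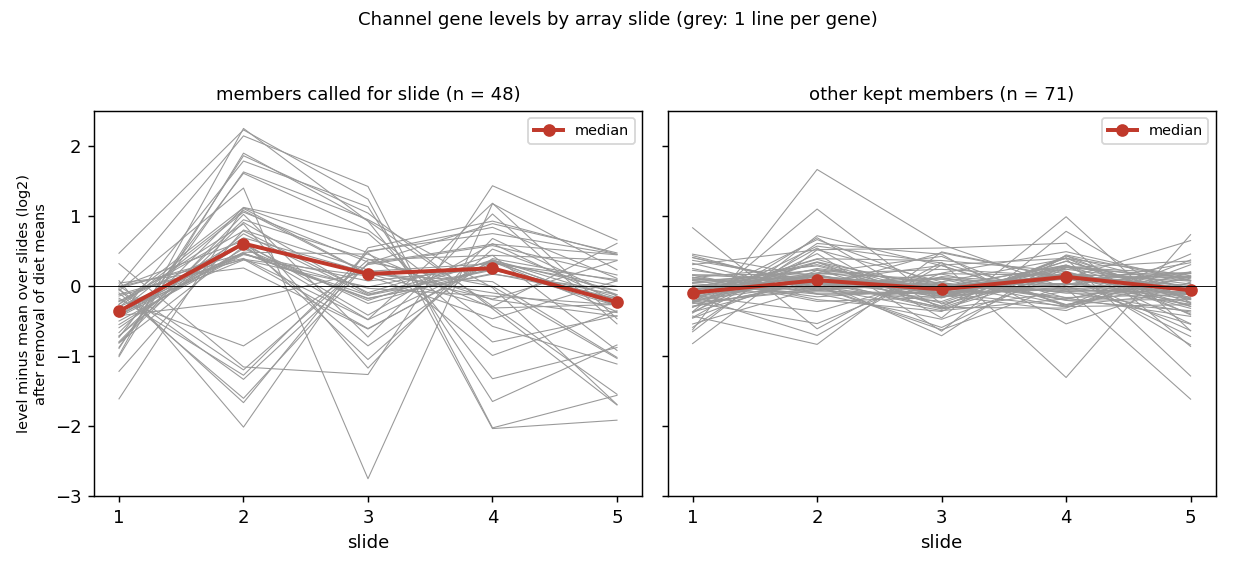
Slide means of the kept channel genes (grey lines, 1 per gene) after removal of diet means, as log2 deviation from the gene's mean over slides (y axis), for slides 1 to 5 (x axis); the left panel holds the 48 members called for slide, the right panel the other 71, and red is the median. Most called members are highest on slide 2, while a few are lowest there.

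Single arrays that stood apart for channel genes were set beside lists of markers of other cells. Kcna1 encodes a potassium channel of myelinated axons. It had -4.59, -2.42, -6.05 and -4.74 in repletion muscles, -5.44 to -5.04 with a median of -5.27 in depletion muscles, and -5.67, -6.26, -5.66 and -3.95 in control muscles. Repletion replicate 2 was the highest array and control replicate 4 the second highest. Of the 10 Schwann cell and myelin markers, all kept, 5 had their highest level of all arrays on repletion replicate 2 and 0 their lowest. On control replicate 4, 2 of the 10 had their highest level and 1 its lowest. Kcna1 differed by 1.26 ± 0.66 for repletion minus control, and by 0.41 without repletion replicate 2. Over the same 10 markers, 8 were above 0 for repletion minus control with a median of 0.30, and their mean score ran from -0.13 to 1.46 in repletion, -0.44 to 0.16 in depletion and -0.43 to 0.27 in control muscles. All 8 kept neuron and axon markers were also above 0 for repletion minus control, against 53.6% of all probes, with a median of 0.33. None of the 8 had an unadjusted p under 0.05. Their mean score overlapped between groups, from -0.16 to 0.58 in repletion and -0.50 to 0.31 in control muscles, with medians of -0.07 and -0.03. The part of both lists in the Kcna1 result was not tested.

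Clcn1 was set beside genes of the neuromuscular junction in the same way. On depletion replicate 1, with the lowest Clcn1, 1 of 14 kept genes of denervation and the junction had its highest level of all arrays and 3 their lowest. The highest was the adhesion gene Ncam1, at -1.51. The lowest were Musk, a receptor kinase of the junction, at -6.75, the acetylcholinesterase gene Ache at -2.23 and its anchoring collagen Colq at -2.25. Genes of the list thus lay in both directions on that array. On control replicate 4, with the highest Clcn1, 5 of the 14 had their lowest level and 0 their highest. Of the 14 genes, 10 were above 0 for depletion minus control, against 45.3% of all probes, with a median of 0.25. With unadjusted p under 0.05, 3 of the 14 (Chrnd, Ncam1 and Etv5) were higher, against 2.14% of all probes. Musk alone was lower, against 2.69%, and none of the 14 passed after adjustment. The mean score of the list ran from -0.33 to 0.19 in repletion, -0.11 to 0.46 in depletion and -0.58 to 0.25 in control muscles, and its part in the channel results was not tested.

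**Figure D4:**
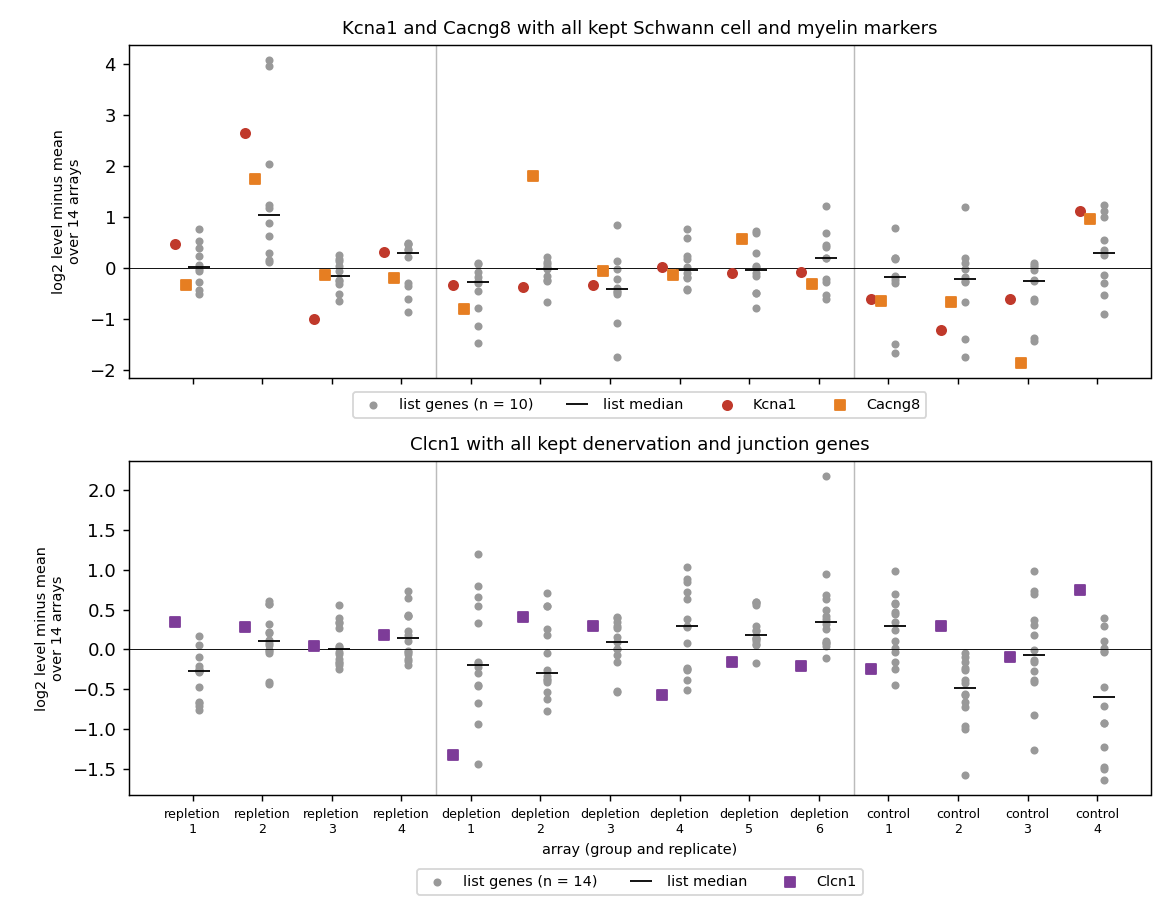
Log2 level minus the gene's mean over the arrays (y axis) on each of 14 arrays (x axis: group and replicate) for Kcna1 and Cacng8 with all 10 kept Schwann cell and myelin markers (top), and for Clcn1 with all 14 kept genes of denervation and the junction (bottom); grey points are list genes and black bars their median on that array. Repletion replicate 2 holds the highest Kcna1 and all 10 markers lie above their mean there, while on depletion replicate 1, with the lowest Clcn1, the 14 genes lie on both sides of theirs; Chrna1 has no value on depletion replicate 3.

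Slow fibre genes were followed beside the channels. All 8 slow fibre markers were above 0 for depletion minus control, against 45.3% of all probes, with a median of 0.74. With unadjusted p under 0.05, 3 were higher in depletion, against 2.14% of all probes. All 8 were below 0 for repletion minus depletion, with a median of -0.20, where 58.9% of all probes were above 0. For repletion minus control all 8 were still above 0, against 53.6% of all probes, with a median of 0.53. The score of the slow list ran from -0.69 to 0.58 in repletion, -0.38 to 0.64 in depletion and -0.61 to -0.20 in control muscles. The part of fibre type in the channel results was not tested.

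Pumps, receptors and other genes of excitability outside the channel families numbered 24. All were kept, and 8 were above 0 for depletion minus control (median -0.13), against 45.3% of all probes. For repletion minus depletion 20 were above 0 (median 0.13), against 58.9% of all probes. None passed after adjustment. With unadjusted p under 0.05, Hcn2 was lower in depletion than in control, against 2.69% of all probes. At that threshold Hcn2, Abcc9 and Nalcn were higher in repletion than in depletion, against 2.5% of all probes. Abcc9 encodes the regulatory subunit that joins Kcnj11 and Kcnj8 in ATP-sensitive channels. It had 2.16, 2.22, 2.31 and 2.19 in repletion muscles, 1.43 to 2.16 in depletion muscles, and 2.31, 2.06, 2.02 and 2.35 in control muscles. The repletion muscles lay at the top of the depletion range or above it. Abcc9 differed by 0.37 ± 0.14 for repletion minus depletion and by -0.28 ± 0.15 for depletion minus control. Ryr1, the calcium release channel, differed by 0.05 ± 0.10 and -0.07 ± 0.11 in these comparisons.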

How the data were processed

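Arrays were 1-colour Agilent rat arrays hybridised with Cy3-labelled plantaris RNA. Per the file headers, the authors deposited each spot's intensity, background-subtracted and detrended within the array by Agilent Feature Extraction 11.5.1.1. The deposited series table holds log2 values with nearly equal medians across arrays. The submitters' processing notes name limma without a version, and how those values were normalized is not given in the sources used here. The table served as an alternative only.

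Control spots and spots marked as outliers (0.669% to 1.05% per array) were left out. Replicate spots were averaged, and each array's 75th percentile was subtracted on the log2 scale. Gene names and rn4 positions are those of the files. Of the 140 names, 2 have another symbol in the RefSeq gene table (Kcne1l and Scn2a1). Probes well above background on at least 4 arrays were fitted for 3 diets, grouped by title, and 5 slides in R 4.3.3 (limma 3.58.1), using moderated t and F statistics and Benjamini-Hochberg adjustment over all kept probes, called at an adjusted p of 0.05. The fit was checked on simulated data. Array number limits the precision. Tables and figures were made with Python 3.11.15, numpy 2.4.6, pandas 2.3.3 and matplotlib 3.10.9.

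The members and lists were chosen with earlier results of these data known. Genes followed singly were the 30 of a muscle channel list, per comparison the 5 with smallest p in each direction and up to 5 whose slide-corrected groups do not overlap, and the 5 with the smallest slide p, in all 48 genes, some of which are not reported here. Of the member genes, 35 had 2 or more kept probes. These were of opposite sign for 14 in depletion minus control, 10 in repletion minus depletion and 15 in repletion minus control. Genes named here among these were Cacna1c, Cacng6, Clcn2, Kcnj9 and Kcnk13 in the first comparison, Cacnb1, Clcn2 and Kcnj9 in the second, and Kcnc2, Kcnk13, Kcnk16, Kcnma1 and Kcnq5 in the third.

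Alternatives were no or a random slide block, replicate number as a block, normexp with an offset of 50, quantile or median scaling, the authors' values, other filters, outlier spots kept, array weights, only 2 groups in the fit, mean of probes, brightest probes alone, depletion replicate 1 counted as repletion, and each array or slide left out.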

Additional observations from a re-analysis of the deposited data

Results flagged for a closer look

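Of 132 groups tested (44 named genes in 3 groups of 4 or 6 arrays), 10 held an array whose gap to the next was above Dixon's critical value, where chance gives about 1 in 20. Repletion replicate 2 held 3 of the 10, depletion replicate 1 held 3 and depletion replicate 2 held 2. Repletion replicate 2 and depletion replicate 2 lie on slide 2.

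On repletion replicate 2, Kcnc2 was at -6.92 with its nearest neighbour at -4.32, and Cacna1c at -5.96 with -4.53 next. The same array had Cacng8 at -2.76 with -4.65 next. Depletion replicate 2 had Kcnc2 at -6.64 with -4.87 next and Kcnc4 at -1.19 with -1.71 next. Depletion replicate 1 had Cacna2d1 at 2.71 with 3.28 next, Kcne3 at -5.24 with -5.68 next and Kcnma1 at -1.18 with -0.71 next.

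The others were single arrays. Depletion replicate 6 had Clcn3 at 0.95 with 1.22 next. Control replicate 2 had Cacna1h at -2.58 with -3.88 next.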

How the results depend on the processing

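In all 34 alternative settings no channel gene and no probe was called for diet in those comparisons the setting allows, so the count of 0 kept its side of the threshold. The number of members with unadjusted p under 0.05 for depletion minus control was 10 as reported, beside 4.82% of all probes. It was 6 without depletion replicate 1 (3.04% of all probes) and 6 without depletion replicate 5 or control replicate 4 (3.95%). Without repletion replicate 1 it was 15 (8.44%), and without depletion replicate 2 it was 17 (7.43%). For repletion minus depletion it was 3 (3.47% of all probes), and 0 with array weights (1.95%). Without depletion replicate 1 it was 1 (2.89%), and without depletion replicate 2 it was 10 (5.71%). For repletion minus control it was 5, 2 without repletion replicate 2, and 10 without depletion replicate 5 or control replicate 4. Slide 4 holds only control replicate 4 and depletion replicate 5, so leaving out either array or the whole slide gave the same counts. The same held for slide 5, with only repletion replicate 4 and depletion replicate 6. These settings among the 34 are thus not separate checks. With normexp background correction the median difference of members was -0.18 for depletion minus control, -0.0026 for repletion minus depletion and -0.17 for repletion minus control, beside -0.14, -0.0072 and -0.12 over all probes, so relative to all probes it was -0.04, 0.0046 and -0.05. There 25 members were above 0 for depletion minus control, against 26.2% of all probes. The same setting lowered the members called for slide to 17 (14.3%), against 8% of all probes; the cause was not tested. Of 144 differences of the genes followed singly, 85 changed sign in at least 1 setting, none of them called. Same-numbered muscles had correlations of -0.49 to 0.72 after removal of group means. Those on the same slide had 0.23 to 0.72 and those on different slides -0.49 to 0.39. Slide effects were not removed, so the correlations cannot tell whether the numbers pair the muscles. With replicate number as a block in place of slide the count called stayed 0, and the medians were 0.01, 0.05 and 0.05 in the order above. Each comparison holds few arrays per slide, and dim probes such as those of Kcnk18 and Clcn2 lie near background, which limits what can be seen.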

Other observations

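Marker lists of other cells were followed in the same fit, and none of their genes passed after adjustment. Over all probes, 45.3% were above 0 for depletion minus control, 58.9% for repletion minus depletion and 53.6% for repletion minus control. For depletion minus control, all 10 macrophage markers were above 0 with a median of 0.50, and all 6 kept erythroid markers with a median of 0.77. For repletion minus control, 9 of the 10 macrophage markers were above 0 with a median of 0.47, and all 6 erythroid markers with a median of 0.34. The macrophage score ran from 0.03 to 0.18 in repletion, -0.61 to 0.57 in depletion and -0.43 to -0.03 in control muscles. The erythroid score ran from -0.47 to 0.20 in repletion, -0.67 to 1.06 in depletion and -0.63 to 0.11 in control muscles. For both lists the depletion range thus held the whole control range. Of 10 fibroblast and tendon markers, 9 were above 0 for repletion minus depletion with a median of 0.42, and of 10 smooth muscle and pericyte markers 9 with a median of 0.16. The fibroblast and tendon score ran from -0.77 to 0.60 in repletion and -0.88 to 0.23 in depletion muscles. The 10 endothelial markers had medians of -0.04 and 0.01 for repletion minus depletion and depletion minus control. All 7 adipocyte markers were below 0 for repletion minus depletion, with a median of -0.23 and no unadjusted p under 0.05. The adipocyte score ran from -0.53 to 0.04 in repletion, -0.23 to 0.69 in depletion and -0.53 to 0.84 in control muscles. Its medians in repletion and depletion were -0.02 and -0.04. Of 8 kept neuron and axon markers, 6 were above 0 for repletion minus depletion with a median of 0.10, and all 8 for repletion minus control with a median of 0.33. The neuron and axon score ran from -0.16 to 0.58 in repletion, -0.45 to 0.51 in depletion and -0.50 to 0.31 in control muscles.

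Channel genes with a brightest probe not well above background on any array numbered 12 of 140. Scn2a1, at the edge of the filter, averaged -7.77 in repletion, -8.07 in depletion and -7.77 in control muscles.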
